A study of Homo sapiens with 11 samples.

Results

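Oxidative phosphorylation makes most of the ATP of a resting cell. Complex I (NADH dehydrogenase) and complex II (succinate dehydrogenase) pass electrons to ubiquinone, complex III (the cytochrome bc1 complex) passes them to cytochrome c, and complex IV (cytochrome c oxidase) passes them to oxygen, while the ATP synthase uses the proton gradient built on the way. Most subunits are encoded in the nucleus, and a few are encoded by mitochondrial DNA. BRAF-mutant melanoma cells are known for leaning on glycolysis, and release of the respiratory program by BRAF inhibitors, through MITF and PPARGC1A, is a known response in cultured melanoma lines.

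The genes described here were chosen by symbol: those that begin with NDUFA, NDUFB, NDUFC, NDUFS, NDUFV, SDHA, SDHB, SDHC, SDHD, UQCR, COX4, COX5, COX6, COX7, COX8 or ATP5, with pseudogenes left out. The array annotation named 95 such genes, and 87 of them were detected on at least 1 array, out of 14886 genes tested. The 87 comprised 34 genes of complex I, 3 of complex II, 8 of complex III, 12 of complex IV, 18 of the ATP synthase and 12 assembly factors, which build a complex without being part of it. Complex IV is counted here with COX7A2L, a supercomplex factor, and the ATP synthase with ATP5IF1, an inhibitor of ATP hydrolysis. The other 8 were not detected on any array, namely COX4I2, COX6A2, COX6B2, COX7A1, COX8C, NDUFA5, NDUFS6 and the antisense gene NDUFB2-AS1. COX6A2 and COX7A1 are the heart and skeletal muscle isoforms of their subunits, and COX4I2 is the isoform known from lung and low oxygen. NDUFA4L2, SDHB and UQCRFS1 were not analysed here, and NDUFA4, now named COXFA4, fell outside the choice by symbol.

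Expression was measured in tumours of A375, a human melanoma cell line with mutant BRAF, grown under the skin of 6-week-old female CD1 athymic mice, which lack T cells but keep myeloid cells. Mice were treated for 12 days with PLX4720 plus bevacizumab (COMBO, 2 arrays), with PLX4720 alone, an inhibitor of mutant BRAF given daily at 60 mg/kg (3 arrays), with bevacizumab alone, an antibody against human VEGF given at 10 mg/kg 3 times per week (3 arrays), or with vehicle, 1% methylcellulose in the label (3 arrays). All arms thus carried the same cell line, in the same host. The arrays were built for human transcripts, so that they report chiefly on tumour cells, and mouse stroma was not analysed here. Values are log2 signals after background correction and quantile normalization, and a difference of 1 is a doubling. In bulk tumours, fewer cells of a type and less RNA per cell cannot be told apart.

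Between 19767 and 21952 of 47323 probes were detected per array. PLX4720 3 and bevacizumab 1 stood apart from the other arrays on the second principal component, at -75.5 and -38.8, against -18.8 to 29.5 for the rest, and PLX4720 1 lay farthest out on the first, at 86.2. Of 11 melanoma lineage markers on the array, 7 were detected, and MLANA, TYR, TYRP1 and S100B were not. Of 12 genes measured that mark fibroblasts, 8 passed the test with PLX4720 and rose, among them COL1A1 at 2.47 and TAGLN at 2.04. The other genes, PDGFRA (1.01), PDGFRB (0.72), FAP (0.29) and ACTA2 (0.31), did not pass. The median log2 difference of the 12 was 2.25. By array, their median above the vehicle mean was 0.94 and 1.41 for COMBO and 2.31, 2.25 and 1.93 for PLX4720. On the bevacizumab arrays it was -0.42, -0.52 and -0.45. The stroma of these xenografts comes from the mouse, so these values on human arrays are no measure of fibroblast number. Whether the signal came from tumour cells or from mouse RNA was not tested, nor was the part of these genes in the values below. Of 8 leukocyte markers measured, AIF1 alone passed with PLX4720, at 1.90, while the median of the 8 was -0.3. The others were CD68 (-1.13), CSF1R (-0.49), ITGAX (-0.42), CD14 (-0.32), LYZ (-0.27), CD163 (-0.04) and ITGAM (0.34). Of 4 endothelial markers, TIE1 alone passed, falling in PLX4720 averaged over bevacizumab. For PLX4720 against vehicle, TIE1 was at -2.29, PECAM1 at -0.8, TEK at 0.24 and EMCN at 0.77. Skeletal muscle markers, whose tissue is rich in mitochondria, were mostly not detected, with 3 of 10 above background on any array.

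No gene of the 87 passed the test in any of 7 contrasts (limma, two-sided, with p-values adjusted by Benjamini-Hochberg across the 14886 genes and read at 0.05). The background differed between contrasts. PLX4720 changed 2.28% of all genes against vehicle, COMBO 0.141% and bevacizumab 0%. COMBO differed from PLX4720 in 0.00672% of genes and from bevacizumab in 0.369%. The interaction, which asks whether COMBO departs from the sum of the single-drug differences, was called in 0.00672% of genes, and the effect of PLX4720 averaged over the presence and absence of bevacizumab in 3.37%.

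At an unadjusted p below 0.05, the PLX4720 contrast named 8 of the 87 genes (9.2%), against 16% of all genes. Those 8 were ATP5MC1, COX7B2, NDUFA13, NDUFA7, NDUFAF4, NDUFB2, NDUFS1 and NDUFS7. Each other contrast named 1 or 2 of the 87. ATP5MC1 was the 1 for bevacizumab against vehicle (1.15%, against 2.35% of all genes), NDUFAF4 for COMBO against vehicle (against 5.21%), NDUFA13 for COMBO against PLX4720 (against 7.32%) and ATP5MC3 for COMBO against bevacizumab (against 7.42%). ATP5MC1 and NDUFA7 were the 2 for the interaction (2.3%, against 5.52%), and ATP5MC3 and NDUFAF4 the 2 for PLX4720 averaged over bevacizumab (2.3%, against 14.7%). In each contrast the share among the 87 lay below that of all genes. The limits of the study's methods, a log2 difference of at least 1 in size and an unadjusted p below 0.01, also named 0 of the 87 in every contrast.

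**Figure D1:**
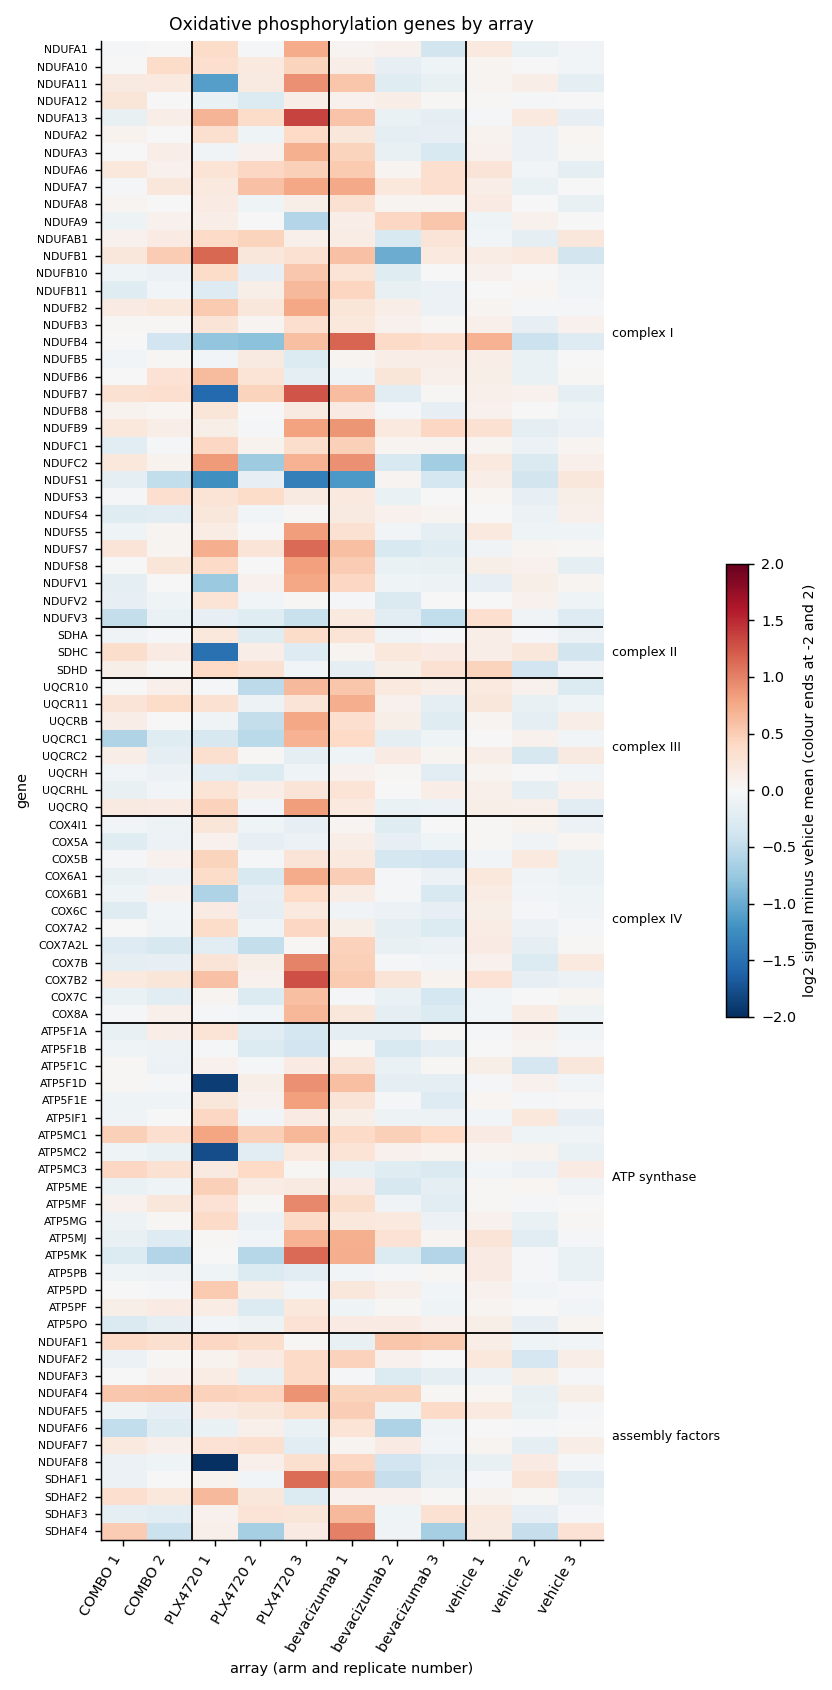
Log2 signal of each of the 87 genes minus its vehicle mean (colour, ends at -2 and 2) on each of the 11 arrays, with genes grouped by complex and arrays by arm. The COMBO and vehicle columns are pale, PLX4720 3 and bevacizumab 1 are mostly red, and PLX4720 1 holds the deepest blue cells, down to -2.88 for NDUFAF8.

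The differences were small. Relative to vehicle, the fitted log2 difference was under 0.5 in size for 86 of the 87 genes with COMBO (98.9%, against 82.5% of all genes), for 75 with PLX4720 (86.2%, against 71.3%) and for 86 with bevacizumab (98.9%, against 90.9%). Replicates of these genes also spread less than those of the typical gene. Most of the 87 probes were detected on every array, while all genes tested include probes detected on only 1 array. The part of signal level in these comparisons with all genes was not tested. The median SD within an arm was 0.07 over the 87 genes and 0.16 over all genes for COMBO, 0.29 and 0.45 for PLX4720, 0.24 and 0.34 for bevacizumab, and 0.15 and 0.19 for vehicle. The 95% interval extended by a median of 0.58 to either side for COMBO and 0.52 for each single drug against vehicle. Changes of 1 log2 unit or more lay outside the interval for 73 of the 87 genes with COMBO, 67 with PLX4720 and 78 with bevacizumab. These were 83.9%, 77% and 89.7% of the 87, against 51.8%, 51.3% and 64.1% of all genes. For the rest of the 87 a change of that size was within what the arrays allow. Of the 87 interaction terms, 36 were bounded this closely (41.4%, against 17.8% of all genes).

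**Figure D2:**
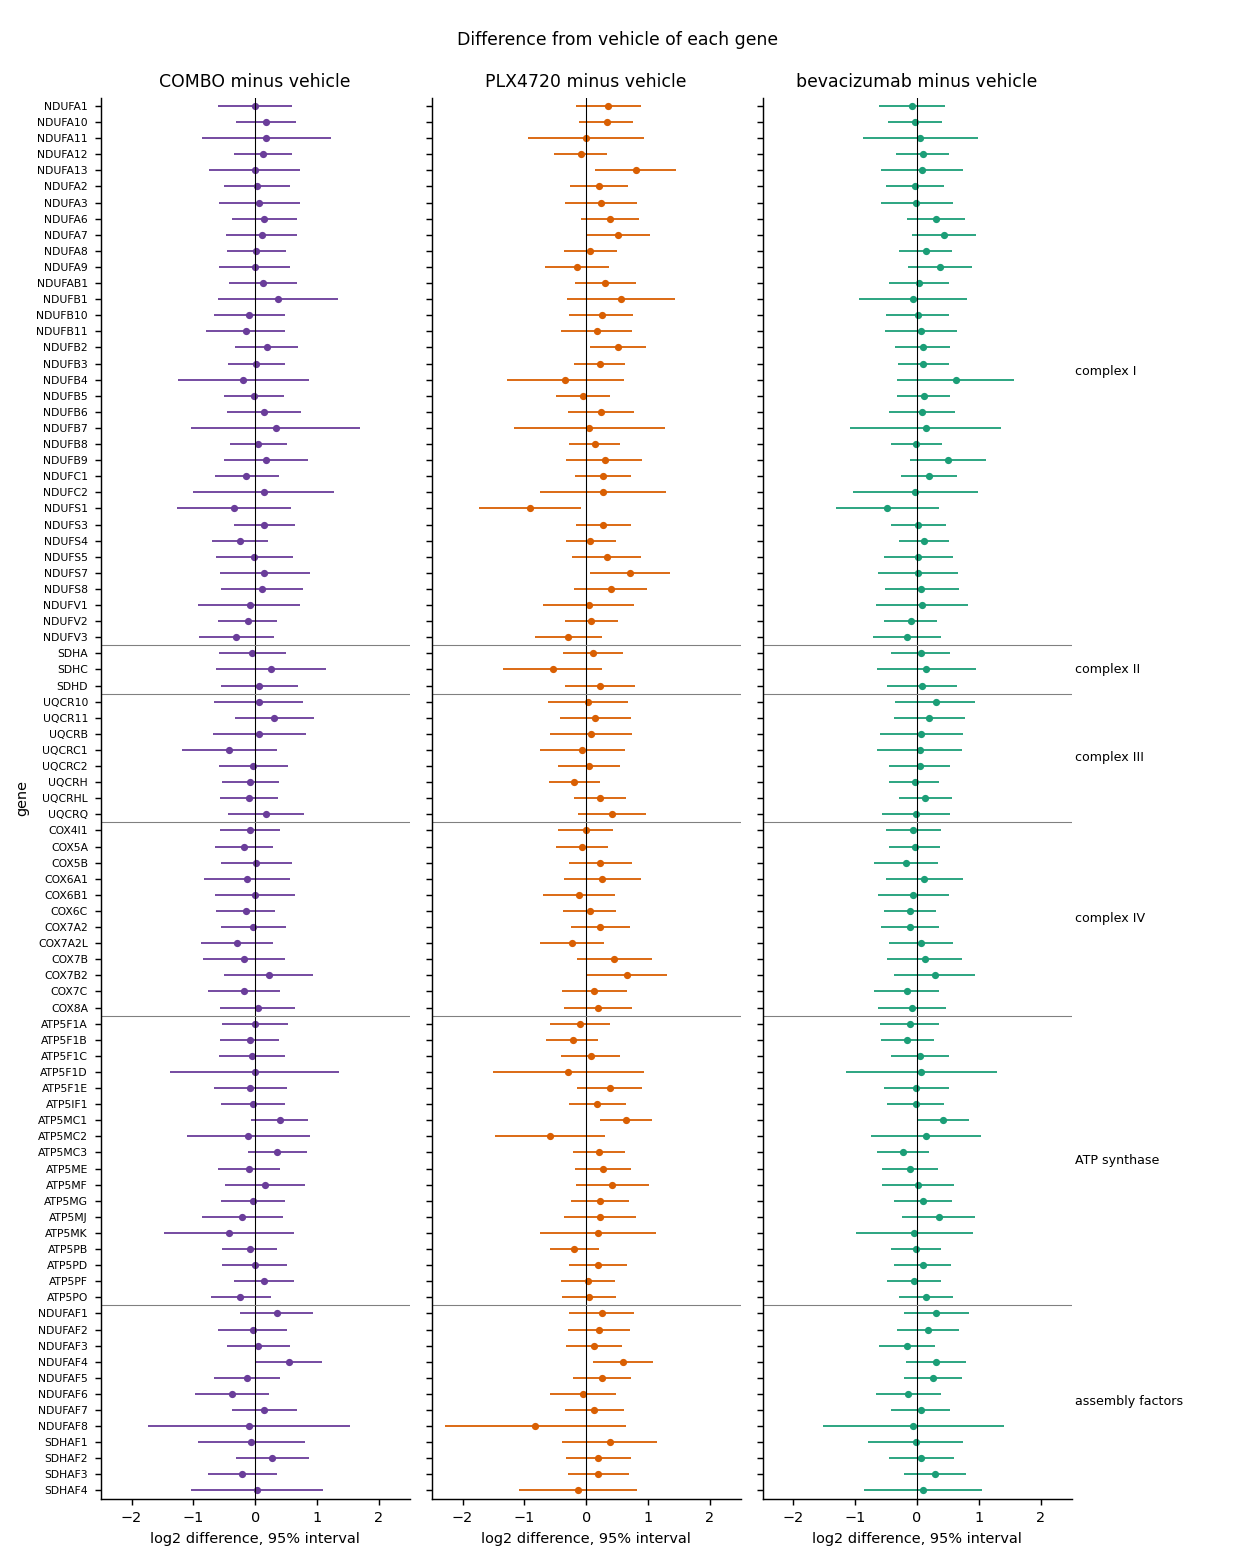
Fitted log2 difference (points) with its 95% interval (lines) for each of the 87 genes, for COMBO, PLX4720 and bevacizumab against vehicle, grouped by complex. Points lie between -0.42 and 0.54 with COMBO, between -0.91 and 0.80 with PLX4720 and between -0.48 and 0.63 with bevacizumab.

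As a group, the genes sat slightly higher in the PLX4720 arm than in vehicle, and this rested mainly on 1 array. The median log2 difference was 0.19 with PLX4720, against 0.06 over all genes, and 65 of the 87 genes (74.7%) were higher, against 55.2% of all genes. By array, the median above the vehicle mean was 0.20 on PLX4720 1, -0.01 on PLX4720 2 and 0.35 on PLX4720 3, against 0.09, -0.06 and -0.05 on the vehicle arrays. Without PLX4720 3 the median difference was 0.08, against 0.06 over all genes. Bevacizumab arrays had medians of 0.25, -0.07 and -0.08, with the array that stood apart again the high one. The median difference for bevacizumab was 0.06, against -0.02 over all genes, and its direction turned without bevacizumab 1 (-0.09) and with arrays weighted by their quality (-0.05). COMBO arrays had medians of -0.02 and 0.01, and the difference was -0.01, against -0.02 over all genes.

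COMBO against PLX4720 gave a median of -0.16, against -0.07 over all genes, with 24 of the 87 genes (27.6%) higher, against 43.4%. Without PLX4720 3 this was -0.09, against -0.08 over all genes. COMBO against bevacizumab gave -0.03, against 0 over all genes. The contrasts against vehicle share the vehicle arrays, and the contrasts of COMBO share the COMBO arrays, so their values are not independent of one another.

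The arrays of a pair of arms did not overlap for some genes. PLX4720 arrays all lay above the vehicle arrays for 14 of the 87 genes (16.1%, against 11.1% of all genes) and all below them for 1, UQCRH (1.15%, against 9.07%). COMBO arrays lay above vehicle for 14 (16.1%, against 16.8%) and below for 15 (17.2%, against 18.8%). Bevacizumab arrays lay above vehicle for 3 (3.45%, against 4.81%) and below for 2, ATP5MC3 and COX6C (2.3%, against 6.04%). COMBO arrays lay above PLX4720 for 1, SDHC (1.15%, against 8.18%), and below for 19 (21.8%, against 11.4%). They lay above bevacizumab for 5 (5.75%, against 14.8%) and below for 15 (17.2%, against 14.4%). UQCRH, the hinge protein of complex III, has a near-identical intronless copy, UQCRHL, whose probe ran the other way with PLX4720 (log2 difference 0.22, against -0.19 for UQCRH), and how far their probes read each other's transcript is not known here.

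**Figure D3:**
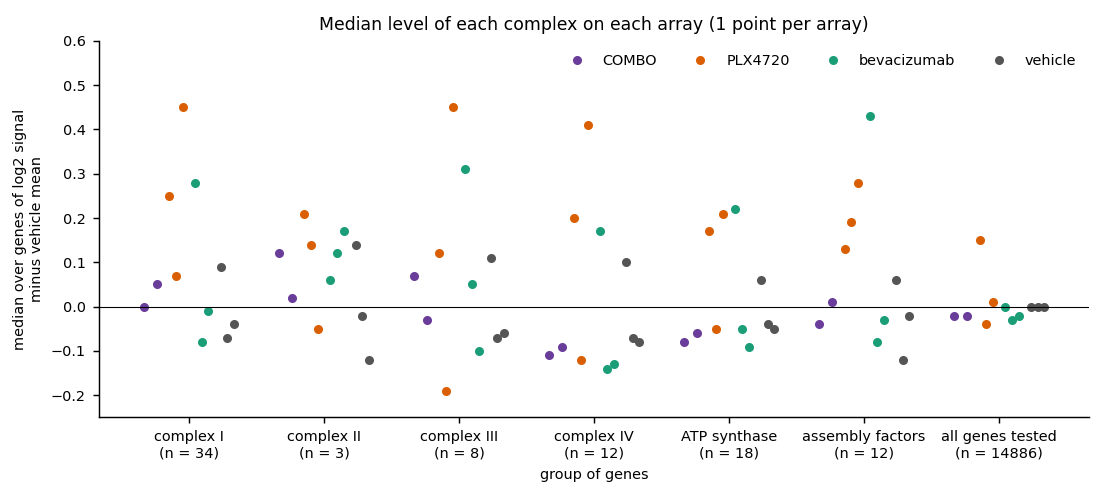
Median over the genes of a complex of the log2 signal minus the vehicle mean, 1 point per array, with all genes tested at the right. In complexes I, III and IV the highest point is PLX4720 3 (0.45, 0.45 and 0.41), while PLX4720 2 lies at 0.07, -0.19 and -0.12.

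Complex I, the entry point for NADH, had a median difference of 0.04 with COMBO, 0.24 with PLX4720 and 0.07 with bevacizumab. Its 6 core subunits measured, which carry the catalytic centres, had medians of 0.01, 0.18 and 0.02 in the same order, and its 28 accessory subunits 0.04, 0.24 and 0.08. The core subunit NDUFS1, an iron-sulfur protein of the NADH arm, had the most negative difference of the 87 genes with PLX4720. NDUFS1 had log2 signals of 7.04 and 6.72 in COMBO, 6.01, 7.07 and 5.87 in PLX4720, 6.08, 7.29 and 6.88 in bevacizumab, and 7.37, 6.87 and 7.45 in vehicle tumours. PLX4720 2 lay within the vehicle range, and the low arrays were PLX4720 1, PLX4720 3 and bevacizumab 1. The difference was -0.91 for PLX4720 (95% interval -1.74 to -0.08, adjusted p = 0.267), -0.48 for bevacizumab and -0.35 for COMBO. The probe was dim, and it was detected on 10 of 11 arrays.

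NDUFA13 (also GRIM-19), an accessory subunit, and NDUFS7, the core subunit that hands electrons to ubiquinone, had the largest positive differences with PLX4720. NDUFA13 had log2 signals of 12.27 and 12.57 in COMBO, 13.11, 12.79 and 13.78 in PLX4720, 12.99, 12.30 and 12.22 in bevacizumab, and 12.40, 12.63 and 12.25 in vehicle tumours. All PLX4720 arrays lay above all vehicle and COMBO arrays. NDUFA13 differed by 0.80 between PLX4720 and vehicle (95% interval 0.14 to 1.46, adjusted p = 0.218) and by -0.81 between COMBO and PLX4720 (-1.54 to -0.07, adjusted p = 0.667), and without PLX4720 3 these were 0.52 and -0.53. NDUFS7 had log2 signals of 11.38 and 11.18 in COMBO, 11.85, 11.38 and 12.27 in PLX4720, 11.72, 10.82 and 10.87 in bevacizumab, and 11.05, 11.17 and 11.15 in vehicle tumours. The high arrays were again PLX4720 3, PLX4720 1 and bevacizumab 1. Its difference with PLX4720 was 0.71 (0.06 to 1.36, adjusted p = 0.267), and without PLX4720 3 it was 0.49.

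The accessory subunits NDUFB2 (0.51, adjusted p = 0.256) and NDUFA7 (0.52, adjusted p = 0.306) showed smaller differences of the same sign with PLX4720. NDUFA7 also had 0.43 with bevacizumab but 0.11 with COMBO, which gave an interaction of -0.85 (95% interval -1.62 to -0.08, adjusted p = 0.869). NDUFV1, which binds FMN and oxidises NADH, differed by 0.04 with PLX4720, although its PLX4720 arrays ranged from 11.91 to 13.42. NDUFB4 had the largest difference with bevacizumab, 0.63 (-0.32 to 1.57), yet it was detected on 6 of 11 arrays only, and without bevacizumab 1 the value was 0.36. It was at -0.34 with PLX4720 and at -0.81 for COMBO against bevacizumab (-1.87 to 0.24). With bevacizumab, NDUFB9 was at 0.50 and NDUFA9 at 0.37, and NDUFV3 was among the 5 most negative with COMBO (-0.31). NDUFB1 was at 0.37 with COMBO and 0.44 for COMBO against bevacizumab.

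Complex II feeds electrons from succinate. SDHA, its flavoprotein, differed by -0.05 with COMBO (95% interval -0.59 to 0.50), 0.11 with PLX4720 and 0.06 with bevacizumab, and the membrane anchor SDHD by 0.07, 0.22 and 0.08. SDHC, the other anchor, had log2 signals of 12.04 and 11.85 in COMBO, 10.19, 11.83 and 11.43 in PLX4720, 11.76, 11.90 and 11.86 in bevacizumab, and 11.84, 11.91 and 11.33 in vehicle tumours. A single array, PLX4720 1, was low. The PLX4720 difference of -0.54 (-1.34 to 0.26) came to -0.06 without it, and the COMBO minus PLX4720 difference of 0.80 (-0.10 to 1.69) came to 0.32.

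In complex III, the core protein UQCRC1 differed by -0.42 with COMBO (-1.19 to 0.35), -0.06 with PLX4720 and 0.04 with bevacizumab, and by -0.46 between COMBO and bevacizumab. The median of the 8 genes was 0.01 with COMBO, 0.06 with PLX4720 and 0.06 with bevacizumab.

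Complex IV had medians of -0.11 with COMBO, 0.16 with PLX4720 and -0.06 with bevacizumab. COX4I1, the widely expressed isoform of subunit IV, had log2 signals of 14.60 and 14.56 in COMBO, 14.90, 14.57 and 14.49 in PLX4720, 14.73, 14.42 and 14.68 in bevacizumab, and 14.70, 14.74 and 14.56 in vehicle tumours. The 4 arms overlapped, and the difference with PLX4720 was -0.01 (-0.45 to 0.43). COX5A gave -0.18 with COMBO, -0.07 with PLX4720 and -0.04 with bevacizumab. COX5B gave 0.02, 0.23 and -0.18 in that order, COX6A1 gave -0.13, 0.26 and 0.11, and COX7A2, the isoform found in most tissues, gave -0.03, 0.23 and -0.11. COX7C was at -0.17 with bevacizumab. COX7B2, an isoform known from testis, had the largest PLX4720 difference of the complex, 0.66 (0.01 to 1.31, adjusted p = 0.308), which was 0.34 without PLX4720 3. COX7B was at -0.63 between COMBO and PLX4720 (-1.31 to 0.04), and at -0.36 without PLX4720 3.

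The ATP synthase had medians of -0.04 with COMBO, 0.19 with PLX4720 and 0.01 with bevacizumab. Its catalytic head changed little. ATP5F1B, the catalytic beta subunit, had log2 signals of 15.56 and 15.54 in COMBO, 15.63, 15.37 and 15.26 in PLX4720, 15.66, 15.33 and 15.46 in bevacizumab, and 15.63, 15.69 and 15.60 in vehicle tumours, and its differences were -0.09, -0.22 and -0.16. ATP5F1A, the alpha subunit, differed by -0.01, -0.10 and -0.12. Both COMBO arrays of ATP5F1B lay below the vehicle arrays, by less than the interval of the fit. The small membrane subunit ATP5MK was at -0.42 with COMBO (-1.48 to 0.63) and at -0.62 for COMBO against PLX4720, which was -0.14 without PLX4720 3. ATP5F1E, the epsilon subunit of the rotor, was at -0.45 for COMBO against PLX4720, and at -0.23 without PLX4720 3. For COMBO against bevacizumab, ATP5MJ was at -0.56.

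The c subunit, which forms the rotating ring in the membrane, is encoded by a family of 3 genes, ATP5MC1, ATP5MC2 and ATP5MC3, whose mature proteins are the same. None of the 3 passed in any contrast with the main settings, and differences between the 3 genes were not tested. For ATP5MC1 the signal was 12.26 and 12.12 in COMBO, 12.57, 12.27 and 12.46 in PLX4720, 12.18, 12.27 and 12.19 in bevacizumab, and 11.95, 11.70 and 11.72 in vehicle tumours. All 8 treated arrays lay above the 3 vehicle arrays. The difference was 0.40 for COMBO (-0.06 to 0.86), 0.64 for PLX4720 (0.23 to 1.06) and 0.42 for bevacizumab (0.01 to 0.84), and the interaction was -0.66 (-1.29 to -0.04, adjusted p = 0.869). The PLX4720 value had the smallest adjusted p of the 87 genes in that contrast, 0.121. This gene alone passed the test when the authors' cubic spline values were used (adjusted p = 0.0471) or when the background was left uncorrected (adjusted p = 0.0378), while the second ATP5MC1 probe detected gave 0.28, -0.17 and 0.05 for COMBO, PLX4720 and bevacizumab.

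ATP5MC2 had signals of 14.22 and 14.17 in COMBO, 12.54, 14.10 and 14.51 in PLX4720, 14.58, 14.40 and 14.38 in bevacizumab, and 14.37, 14.38 and 14.18 in vehicle tumours. Again PLX4720 1 alone was low, and the difference with PLX4720, -0.59 (-1.48 to 0.30), was -0.01 without it. ATP5MC3 had signals of 7.58 and 7.49 in COMBO, 7.36, 7.58 and 7.21 in PLX4720, 7.03, 6.93 and 6.88 in bevacizumab, and 7.12, 7.07 and 7.34 in vehicle tumours. Both COMBO arrays lay above, and all bevacizumab arrays below, all vehicle arrays. COMBO differed from bevacizumab by 0.59 (0.12 to 1.07, adjusted p = 0.464) and from vehicle by 0.36, and bevacizumab from vehicle by -0.23. The ATP5MC3 probe was dim, though detected on all 11 arrays. With the background left uncorrected, its COMBO minus bevacizumab difference was 0.32. With arrays weighted by their quality, the COMBO minus bevacizumab difference of ATP5MC3 passed the test (0.64, adjusted p = 0.0241), where 863 of all genes also did, against 55 without weights.

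**Figure D4:**
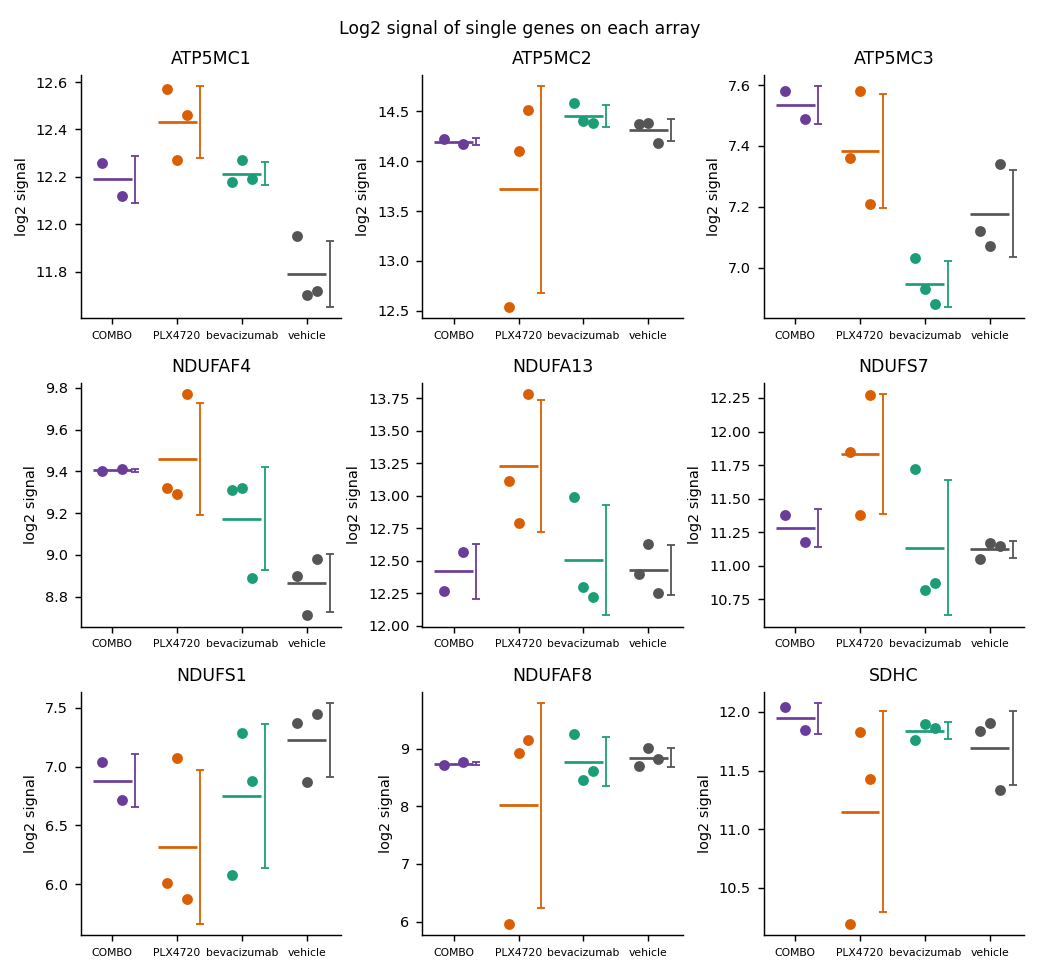
Log2 signal of 9 genes on each array (points), with the mean (horizontal line) and SD (bar) of each arm, in the order COMBO, PLX4720, bevacizumab and vehicle; each panel has its own axis. ATP5MC1 lies above vehicle in every treated array, while the PLX4720 means of ATP5MC2, NDUFAF8 and SDHC are pulled down by 1 array.

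The promoters of 2 of these c subunit genes are shown as examples of upstream sequence that differs between genes of the same mature protein. The 100 bases before the annotated start are given 5′ to 3′ on the gene's strand from RefSeq (GRCh38.p14), ATP5MC1 at chr17:48892687-48892786 (plus strand) and ATP5MC2 at chr12:53676084-53676183 (minus strand). Capitals mark the CCAAT box (CCAAT), the short site of the cyclic AMP response element (TGACG) and the core of the site of NRF1 (GCATGCG), a transcription factor of many respiratory genes, each on either strand, and overlapping matches run together.
ATP5MC1: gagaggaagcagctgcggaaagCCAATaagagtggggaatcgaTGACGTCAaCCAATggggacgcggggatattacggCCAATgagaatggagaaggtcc
ATP5MC2: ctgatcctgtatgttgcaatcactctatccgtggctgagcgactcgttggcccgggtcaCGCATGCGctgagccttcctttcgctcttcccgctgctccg
In the 250 bases before the start, the NRF1 core was found for 11 of the 74 genes with a promoter sequence at hand (14.9%, against 3.57% of 27305 promoters), the ETS core CCGGAAG for 19 (25.7%, against 8.82%), TGACG for 25 (33.8%, against 21.7%), the E-box CACGTG for 7 (9.46%, against 6.49%) and CCAAT for 22 (29.7%, against 33.0%). The median GC content of the 250 bases was 61% for the 74 genes, against 58% for all promoters, which include those of genes not tested here. The part of GC content and of expression in these shares was not tested. The matches describe the sequence only, and the arrays hold no measure of binding.

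Assembly factors had medians of 0 with COMBO, 0.20 with PLX4720 and 0.08 with bevacizumab. NDUFAF4, which helps to build complex I, was the gene of the 87 with the largest positive difference with COMBO. NDUFAF4 had log2 signals of 9.40 and 9.41 in COMBO, 9.32, 9.29 and 9.77 in PLX4720, 9.31, 9.32 and 8.89 in bevacizumab, and 8.90, 8.71 and 8.98 in vehicle tumours. All COMBO and PLX4720 arrays lay above all vehicle arrays. Its difference was 0.54 with COMBO (0.01 to 1.08, adjusted p = 0.942), 0.60 with PLX4720 (0.11 to 1.08, adjusted p = 0.209) and 0.42 for PLX4720 averaged over bevacizumab (0.06 to 0.78, adjusted p = 0.251), and its second probe gave 0.29 with COMBO, 0.30 with PLX4720 and 0.47 with bevacizumab. NDUFAF8 had signals of 8.72 and 8.76 in COMBO, 5.96, 8.93 and 9.15 in PLX4720, 9.26, 8.45 and 8.61 in bevacizumab, and 8.69, 9.01 and 8.82 in vehicle tumours. Its PLX4720 difference of -0.82 (-2.28 to 0.64) came from PLX4720 1, and without that array it was 0.20. NDUFAF1 (0.35) was among the 5 most positive and NDUFAF6 (-0.37) among the 5 most negative with COMBO. NDUFAF3 was at -0.16 with bevacizumab. COMBO against PLX4720 gave 0.72 for NDUFAF8, 0.57 for NDUFS1, 0.48 for ATP5MC2, 0.28 for NDUFB7 and -0.56 for NDUFS7, of which the 4 positive ones were low on PLX4720 1. For COMBO against bevacizumab, SDHAF3 was at -0.50 and NDUFAF5 at -0.38, against 0.24 for NDUFAF4, 0.22 for NDUFA10 and 0.21 for SDHAF2.

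On PLX4720 1, 10 of the 87 genes lay more than 0.5 below the vehicle mean and 10 more than 0.5 above it. Of all 14886 genes tested, 2492 lay below and 4388 above by that much. Relative to the vehicle mean, the lowest of the 87 on this array were NDUFAF8 at -2.88, ATP5F1D at -1.89, ATP5MC2 at -1.77 and NDUFB7 at -1.55. SDHC followed at -1.50, NDUFS1 at -1.22 and NDUFA11 at -1.10. PLX4720 3 was the opposite for several of the same probes, with ATP5F1D at 13.68 against 10.89 on PLX4720 1 and NDUFB7 at 14.38 against 11.58. Replicates of 1 arm thus lay on both sides of the vehicle arrays, whose values for ATP5F1D were 12.74, 12.86 and 12.73.

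Some genes had a second probe that did not follow the first. Of the 87 genes, 26 had 1 or more further detected probes, 32 in all, and 5 of these, from 4 genes, had the opposite sign with a size over 0.5 in a contrast against vehicle. With PLX4720 the second probe was at -0.69 for SDHA (0.11 for the brighter probe), -0.88 for NDUFA10 (0.33) and -1.13 and -0.68 for SDHAF1 (0.38). With bevacizumab the second probe of ATP5ME was at 0.59 (-0.12 for the brighter probe), though it was detected on 2 arrays only.

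Genes around the complexes gave few calls. Of 9 subunits and carriers outside the choice by symbol, 0 passed in any contrast, and their median with PLX4720 was 0.26. COXFA4 was at -0.06 with COMBO, 0.33 with PLX4720 and 0.04 with bevacizumab, and CYCS, cytochrome c, at 0.17, 0.54 and -0.23. The largest PLX4720 difference of the 9 was -1.45, for ETFB, at 8.72, 13.47 and 12.51 on the PLX4720 arrays. ETFA was at -0.22 with PLX4720. The ATP synthase inhibitor ATP5IF1 counts in both lists. Likewise, 0 passed of 36 further assembly factors measured (median with PLX4720 0.22), of 15 regulators of mitochondrial biogenesis (0.07), of 16 genes of pyruvate dehydrogenase and the citric acid cycle (-0.14) and of 5 carriers of ATP and phosphate and porins (-0.35), in any contrast. PPARGC1A, the coactivator of mitochondrial biogenesis, had log2 signals of 6.60 and 6.62 in COMBO, 8.34, 6.16 and 6.75 in PLX4720, 5.38, 5.75 and 6.28 in bevacizumab, and 6.50, 6.49 and 5.80 in vehicle tumours. It was high on PLX4720 1, and the difference with PLX4720 was 0.82 (adjusted p = 0.446). The largest PLX4720 differences of the other regulators were -0.76 for GABPB1, 0.75 for TWNK, 0.62 for NRF1 and -0.59 for TFB1M. MITF had signals of 7.99, 7.6 and 7.85 in PLX4720 and 6.95, 7.57 and 6.76 in vehicle tumours. Its difference was 0.24 with COMBO, 0.72 with PLX4720 (adjusted p = 0.308) and -0.55 with bevacizumab. The other melanoma lineage markers detected went both ways with PLX4720, and none passed. NGFR was at 0.75, SOX10 at 0.6, PMEL at 0.46, S100A1 at 0.27, SOX9 at -0.8 and AXL at -0.81. No probe named for a subunit encoded by mitochondrial DNA was analysed here.

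Low-oxygen genes that act on mitochondria were the only list around the complexes with a call. Of 9 measured, 1 fell with PLX4720, BNIP3, a receptor for mitophagy, where 2.28% of all genes were called. The median of the list was -0.45 with COMBO, -0.54 with PLX4720 and 0.02 with bevacizumab. BNIP3 had log2 signals of 13.68 and 12.91 in COMBO, 11.90, 12.08 and 12.59 in PLX4720, 14.13, 14.37 and 14.18 in bevacizumab, and 14.08, 14.28 and 14.20 in vehicle tumours. BNIP3 fell by 2 on the log2 scale with PLX4720 (adjusted p = 0.00431), and the COMBO difference was -0.89 (adjusted p = 0.557). In PLX4720 averaged over bevacizumab, 3 of the 9 fell, BNIP3, BNIP3L and FAM162A, where 3.37% of all genes were called. FAM162A differed from vehicle by -0.53 with COMBO, -0.78 with PLX4720 and 1.1 with bevacizumab, and passed in none of these. The averaged contrast takes in the bevacizumab arrays, where FAM162A was at 9.18, 8.74 and 9.27, against 8.03, 7.45 and 8.41 in vehicle tumours.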

How the data were processed

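The authors exported signals with GenomeStudio 2011.01. Their deposited table holds, per probe and array, an intensity, not normalized according to the header, beside a detection p-value that ranks the probe among negative control beads. A second deposited table holds the authors' intensity values after cubic spline normalization, used as an alternative. Columns were matched to samples by arm letter and number in their names. The platform annotation gave 1 gene symbol to 30113 of 47323 probes, several to 8 and none to 17202, and only the first kind was tested. No genome build is stated for the probes.

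Here intensities were corrected with normexp (offset 16), normalized by quantiles and taken to log2 (limma 3.58.1, R 4.3.3). Probes with a detection p-value below 0.05 on at least 1 array were kept, and each gene was given its probe of largest mean. The 4 arms were fitted to all 11 arrays at once, with two-sided moderated tests in 7 contrasts. The scripts were tested on simulated data. Replicates are biological per the study's methods. Plots come from matplotlib 3.10.9 under Python 3.11.15.

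The genes named are those with the 5 largest differences in each direction against vehicle and of COMBO against each drug, a fixed set of 20 subunits, genes whose probes disagree, and called genes of the lists. NDUFB2, NDUFA7 and the genes low on PLX4720 1 were added after their values were seen. So were CYCS, ETFA, ETFB, PPARGC1A, MITF, the other regulators and melanoma markers, and the fibroblast, leukocyte and endothelial markers that did not pass. Members and lists were chosen with earlier results of these data known. Alternatives covered normalization, background, filter, probe choice, array weights, replicate block and arrays left out.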

Additional observations from a re-analysis of the deposited data

How the results depend on the processing

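The count of genes called among the 87 stayed at 0 in 163 of 166 recalculations over 7 contrasts and 24 settings. It was 1 (ATP5MC1) for PLX4720 against vehicle with the authors' cubic spline values and with no background correction, and 1 (ATP5MC3) for COMBO against bevacizumab with array weights. Leaving out each array in turn gave 0 to 0 in every contrast. The number of arrays, 2 or 3 per arm, limits the precision.

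The median difference of the 87 genes, leaving out each array, ranged from 0.08 to 0.23 for PLX4720, from -0.09 to 0.12 for bevacizumab and from -0.03 to 0.04 for COMBO, each against vehicle, from -0.25 to -0.09 for COMBO against PLX4720, and from -0.10 to 0.04 for COMBO against bevacizumab. With PLX4720 3 and bevacizumab 1 both left out, bevacizumab against vehicle gave -0.09. With PLX4720 1 and PLX4720 3 both left out, an alternative chosen after seeing the data, PLX4720 against vehicle gave -0.01 and COMBO against PLX4720 gave 0. The remaining PLX4720 array was assumed to vary like the other groups. Median scaling gave -0.17 for COMBO against vehicle (all genes -0.11) and -0.46 for COMBO against PLX4720 (all genes -0.23), a difference from all genes of -0.06 and -0.23, against 0.01 and -0.09 with quantile normalization. The cause was not tested.

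Of the single genes followed, NDUFAF8 with PLX4720 ranged from -1.38 to 0.20 on leaving out each array, turning positive without PLX4720 1. Without PLX4720 1 and PLX4720 3 it was 0.09, SDHC with PLX4720 was 0.14, and ATP5MK for COMBO against PLX4720 was 0.14. ATP5MC1 with PLX4720 was 0.24 when its detected probes were averaged.

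Replicate numbers were not found to pair the samples: over 15 pairs of the same number, deviations from the arm means correlated at -0.47 to 0.27, with 3 over 0.1. With the replicate block, 0 of the 87 genes were called in every contrast, the median for PLX4720 against vehicle was 0.19 and the count over all genes was 193, against 340 without the block.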
